A study of Mus musculus with 4 samples.

Results

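The Sprouty and Spred genes are the 7 mouse genes Spry1, Spry2, Spry3, Spry4, Spred1, Spred2 and Spred3. They were chosen by name, and every probe of the array that carries one of these gene names and is not a control was taken. This gave 8 of the 55681 probes, 1 for each gene and 2 for Spred1. Each was present as a single spot, none was saturated and none was marked as an outlier. A probe is called well above background here where the scanner software marked its spot so. The filter on dim probes asked for this mark on both siControl arrays or both siFxr1 arrays. It kept 19201 genes, among them 5 of the 7 members, and Spry3 and Spred3 were below it. Spry4 passed it only through its siFxr1 arrays, so a higher level there was built into its passing.

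Sprouty and Spred proteins restrain signalling from growth factor receptors with tyrosine kinase activity. Such receptors recruit adaptors that load Ras with GTP, and Ras then activates the kinases Raf, Mek and Erk. Several Sprouty genes are themselves transcribed in response to Erk, which makes their products feedback inhibitors. Sproutys sit at the membrane, become phosphorylated on tyrosine and interfere with adaptors, Ras and Raf. Spreds share the cysteine-rich Sprouty domain and carry an EVH1 domain, by which Spred1 brings the Ras inactivator neurofibromin to the membrane. In skeletal muscle, Spry1 is known for its part in the return of satellite cells to quiescence.

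RNA was measured in C2C12 cells, a mouse line of myoblasts, which are the proliferating precursors of skeletal muscle fibres. In each of 2 experiments, 1 culture was transfected with siFxr1, a small interfering RNA against Fxr1, and 1 with siControl, a random small interfering RNA of similar GC content. Lipofectamine was used for both, the knockdown was transient, and RNA was taken at a single time after transfection. Fxr1 encodes an RNA-binding protein that is abundant in muscle. The 4 one-colour Agilent arrays held 2 samples of each condition, which the study's methods call biological replicates, and each slide carried both samples of an experiment. RNA integrity numbers were 8 for siFxr1 in experiment 1 and 9 for the other samples. All cultures were of the one line and carried no other alteration that the labels name.

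The targeted gene was checked first. Fxr1 has 2 probes, both on chromosome 3. The first read 13.85 and 13.71 in siControl and 10.15 and 10.77 in siFxr1 (normalized log2 signal, experiments 1 and 2), and both siFxr1 arrays lay below both siControl arrays. The fitted change was -3.31 on the log2 scale, with an SE of 0.29 and a limma adjusted p of 0.950 (n = 2 per condition), and that of the second probe was -3.61. With the condition as the only term, limma called 0 of the 55681 probes, which is 0% at a B value (the log odds of a change) above 0 and 0% at an adjusted p under 0.05. No probe, those of Fxr1 included, passed. In this fit, which leaves out the pairing by experiment, 2764 probes (4.96%) had an unadjusted p under 0.05. That is about the share that this threshold gives by chance. With the experiment as a block, limma gave 4927 probes an unadjusted p under 0.05, more than the 2764 without the block, and again called none. Calls below were made by size within each experiment. At least 2-fold higher in siFxr1 in both experiments were 405 genes (2.11%), and at least 2-fold lower 289 (1.51%). Of the myoblast markers, Myod1, Des, Cdh15 and Chrna1 were well above background on all 4 arrays and Myf5 on none. Between 45.4% and 52.9% of the probes were well above background on an array.

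The probes of the 7 members lie at these places in the mm9 build, as the array's annotation gives them. Spry1 is measured at chr3:37543403-37543462, Spry2 at chr14:106291845-106291904 and Spry3 on the unplaced part of chromosome X. The Spred1 probes, here called a and b, lie at chr2:117005906-117005965 and chr2:117004952-117005011. That of Spred2 lies at chr11:19922416-19922475 and that of Spred3 at chr7:29944517-29944576. Each probe is 60 bases long, and its place within an exon or UTR was not determined.

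The upstream sequences of the 4 members that were well above background on all 4 arrays are shown, because 3 of them were higher in siFxr1 and the remaining one, Spry2, was not. They are the 250 bases before the annotated start, 5′ to 3′, credited to RefSeq on GRCm38.p6. Spry1 is chr3:37639697-37639946 on the + strand, Spry2 is chr14:105896820-105897069 on the - strand, Spred1 is chr2:117120821-117121070 on the + strand and Spred2 is chr11:19924192-19924441 on the + strand. Capitals mark GGAA on either strand (GGAA or TTCC), the core shared by binding sites of ETS factors, a family that includes targets of Erk.
Spry1: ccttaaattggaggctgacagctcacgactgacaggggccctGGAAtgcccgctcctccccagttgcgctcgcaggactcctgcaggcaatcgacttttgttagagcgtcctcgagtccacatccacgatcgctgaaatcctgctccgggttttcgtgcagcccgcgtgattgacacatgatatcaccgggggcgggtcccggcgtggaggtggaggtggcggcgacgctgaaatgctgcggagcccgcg
Spry2: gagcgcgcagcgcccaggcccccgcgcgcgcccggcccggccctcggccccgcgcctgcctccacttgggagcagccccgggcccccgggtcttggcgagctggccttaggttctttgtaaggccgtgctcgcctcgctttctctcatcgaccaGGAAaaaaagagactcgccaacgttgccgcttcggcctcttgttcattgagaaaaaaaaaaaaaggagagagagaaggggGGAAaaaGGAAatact
Spred1: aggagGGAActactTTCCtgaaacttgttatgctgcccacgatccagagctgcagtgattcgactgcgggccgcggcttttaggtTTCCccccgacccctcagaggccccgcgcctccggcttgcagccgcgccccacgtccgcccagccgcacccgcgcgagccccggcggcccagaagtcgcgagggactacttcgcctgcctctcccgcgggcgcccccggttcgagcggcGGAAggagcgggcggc
Spred2: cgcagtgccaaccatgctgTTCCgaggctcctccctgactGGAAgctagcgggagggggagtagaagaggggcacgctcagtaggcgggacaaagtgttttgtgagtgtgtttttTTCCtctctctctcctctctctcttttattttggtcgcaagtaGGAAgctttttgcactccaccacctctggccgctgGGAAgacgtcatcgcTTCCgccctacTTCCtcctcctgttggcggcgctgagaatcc

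The Spry1 window held 1 such core, Spry2 held 3, Spred1 held 4 and Spred2 held 7. Over the 32851 promoter windows of the same length, 93.4% held at least 1 and the median was 3. The window of Spred2 also held the only TGACG among these members, on the strand opposite to the one printed, where it reads CGTCA. This is the short form of the cAMP response element, which 17.8% of windows held on either strand. None of the 5 members with an entry, these 4 and Spred3, had on either strand a CCGGAAG (ETS, in 6.91% of windows), TGANTCA (AP-1, in 6.75%), TGACGTCA (CRE, in 1.55%), CAGCTG (E-box, in 13%) or GCGGGGGCG (EGR, in 2.57%). GGAA is contained in CCGGAAG, and TGACG in TGACGTCA. The GC content was 62.4% in Spry1 and in Spry2, 70.8% in Spred1, 56% in Spred2 and 55.6% in Spred3, against a median of 52.4%. CpG dinucleotides numbered 23, 23, 31, 12 and 6 in the same order, against a median of 6. These matches are descriptions of the letters only.

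On the background-corrected signal, Spry4 and Spry1 were higher in siFxr1 by more than 2-fold in both experiments, Spred1 and Spred2 were higher by less, and Spry2 differed by -0.30 and -0.02 on the log2 scale. Spry3 and Spred3 were too dim for a direction. Of the 7 members, 5 were above the filter, and 2 of these 5 rose at least 2-fold in both experiments, against 2.11% of the 19201 genes above the filter, and 0 fell, against 1.51%. For 4 of the 5, Spry1, Spry4, Spred1 and Spred2, both siFxr1 arrays lay above both siControl arrays, against 16.5% of those genes. For 0 of the 5 did they lie below, against 14.2%. Spry4 is in both counts of higher members although it passed the filter only through its siFxr1 arrays, so its rise was partly built in. Of the members well above background on all 4 arrays, Spry1 alone rose at least 2-fold in both experiments. Because RNA of whole cultures was measured, more RNA per cell and more cells of a kind that expresses a gene cannot be told apart. The members were named with results of these data known, and their counts are given as a description.

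**Figure D1:**
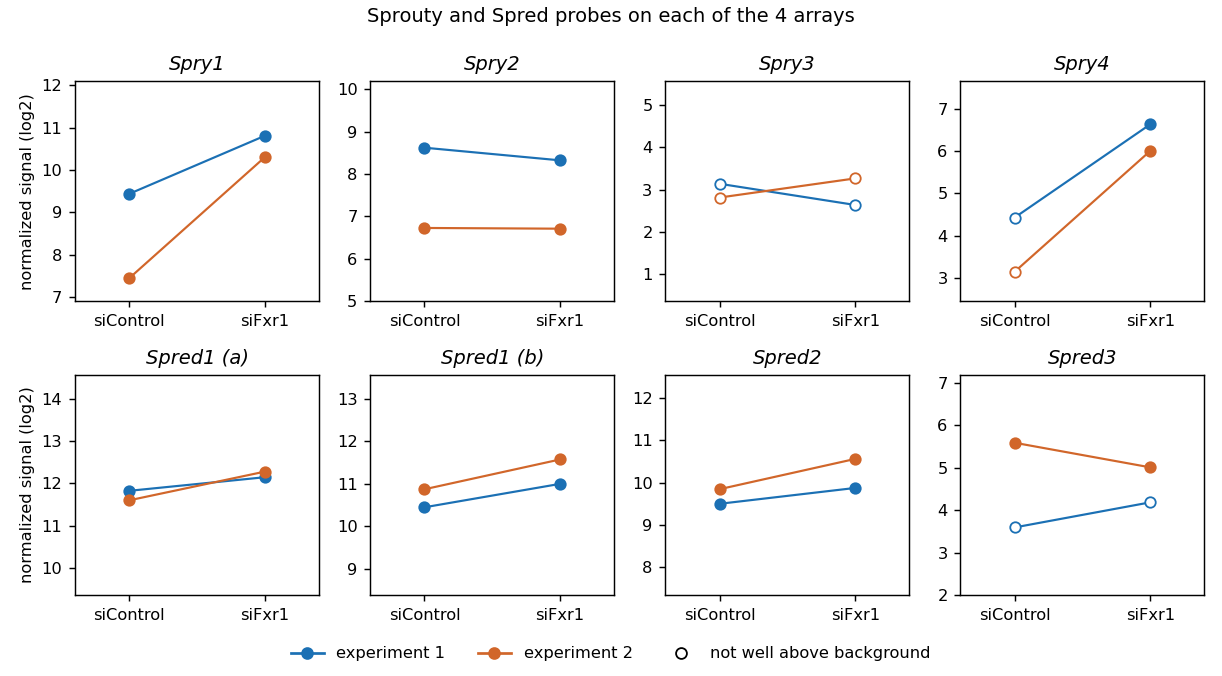
Normalized log2 signal (vertical axis, each panel spanning the same range) of the 8 Sprouty and Spred probes in siControl and siFxr1. Each point is 1 array, lines join the arrays of an experiment, and open points were not well above background. In Spry1 and Spry4 the lines rise steeply in both experiments, from 9.44 and 7.45 to 10.81 and 10.30 for Spry1, while in Spry2 they are nearly flat and the experiments lie apart.

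Spry4, an inhibitor of the Ras to Erk route, was well above background in siFxr1 only. Its probe at chr18:38745923-38745982 read 4.43 and 3.15 on the siControl arrays of experiments 1 and 2 and 6.63 and 6.00 on the siFxr1 arrays (normalized log2 signal). Both siFxr1 arrays were higher than both siControl arrays, without overlap. The difference was 2.20 within experiment 1 and 2.85 within experiment 2, or 4.60-fold and 7.23-fold. The mean was 6.32 ± 0.44 in siFxr1 and 3.79 ± 0.90 in siControl (SD, n = 2 each). The fitted change was 2.53 on the log2 scale, with an SE of 0.58 and a limma adjusted p of 0.967.

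Since the siControl level of Spry4 was not well above background, its fold change on this signal is uncertain. The lowest signals among probes well above background on the siControl arrays were 4.49 and 4.65. With the siControl level put at their mean of 4.57, Spry4 would be 3.37-fold higher in siFxr1. This is no firm lower bound, because probes without the mark can read higher. On siControl of experiment 1, Krt8 and Dusp5 read 5.27 and 5.15 without it. The 3.37-fold value holds for the background-corrected, quantile-normalized signal and not for the other background settings given below. Before normalization, the median spot signal was 110.5 and 104 in siControl over local backgrounds of 76 and 65, and 161.5 and 190 in siFxr1 over 68 and 59. The siFxr1 spots thus stood clear of the siControl spots before any scaling, with local backgrounds that were lower in siFxr1 in both experiments.

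How large the Spry4 difference appeared depended on the background correction. It was 2.73 with scaling to the 75th percentile, 1.63 with the median signal minus the local background and 0.91 after normexp with an offset of 50. It was 0.73 with no background correction and 0.74 in the authors' normalized table. Spry4 was higher in siFxr1 in both experiments under each of these, while under the last 3 settings the difference fell below 2-fold in both. The change of Spry4 was larger than that of Spry1 with either scaling of the processed signal and smaller under the other 4 settings.

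**Figure D2:**
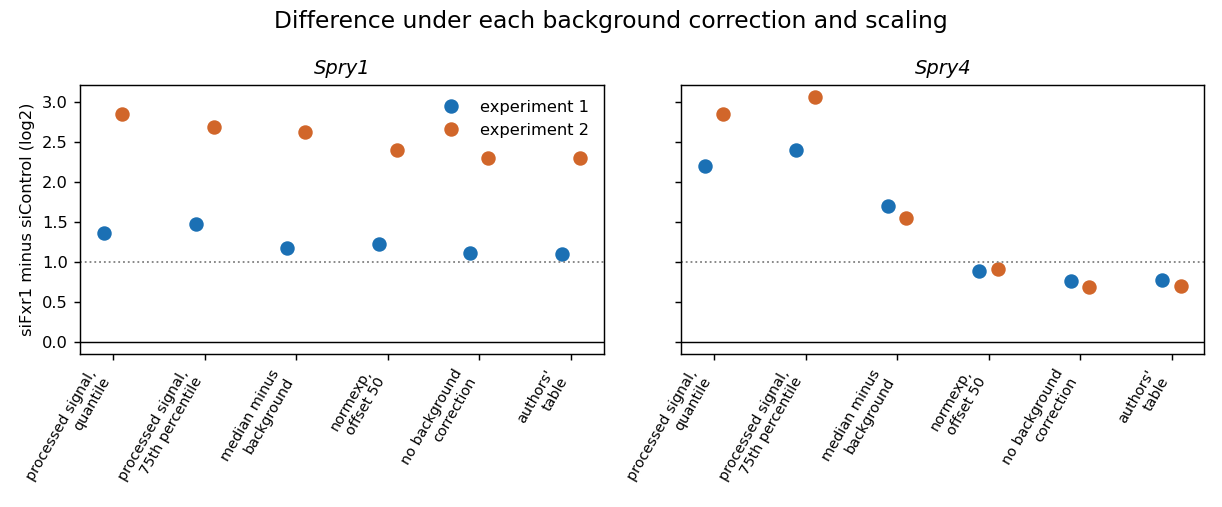
siFxr1 minus siControl within each experiment (log2, vertical axis) for Spry1 and Spry4 under 6 ways of correcting background and scaling arrays (horizontal axis), with 2-fold as the dotted line. Spry1 stays above 2-fold in both experiments throughout, whereas Spry4 runs from 2.73 (mean of both experiments, 75th percentile) down to 0.73 (no background correction).

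Spry4 was the only member called in another fit. With the experiment as a block and dim probes left out, limma called 354 of 25540 probes at a positive B value (1.39%), and 211 of these calls were higher in siFxr1 (0.826%). In this fit Spry4 had an SE of 0.27, a B value of 2.26 and a limma adjusted p of 0.0304, but it had entered only through the condition in which it was higher, so the call rests in part on the filter. With the block and no filter its B value was -2.47 and its adjusted p 0.535, and no probe was called.

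The genes whose pattern over the 4 arrays was nearest to that of Spry4 were Ece1, Il6, Pi16, Tafa2 and Kcnj12. Nearness was the Euclidean distance between log2 signals centred on each gene's mean, over 19201 genes and 4 arrays. Ece1, the endothelin-converting enzyme, was nearest at 0.261, with a log2 fold change of 2.30, and Il6, an inflammatory cytokine, followed at 0.436 with 2.35. Pi16, a peptidase inhibitor, lay at 0.502 with a change of 2.21, Tafa2, a secreted protein, at 0.516 with 2.73, and Kcnj12, an inward rectifier potassium channel, at 0.521 with 2.80. Like Spry4, Tafa2 was well above background in siFxr1 only, and the other 4 genes were so on all arrays. These genes were chosen by their likeness over the same 4 arrays. The distances rest in part on siControl values of Spry4 that were not well above background. They were computed on the background-corrected, quantile-normalized signal only.

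Spry1, the Sprouty known from satellite cells, was measured well above background in every sample. Its probe read 9.44 and 7.45 in siControl and 10.81 and 10.30 in siFxr1 (normalized log2 signal, experiments 1 and 2). Both siFxr1 arrays were higher than both siControl arrays, and the siControl array of experiment 2 was the lowest by far. The difference was 1.37 in experiment 1 and 2.86 in experiment 2, or 2.59-fold and 7.25-fold. The means were 10.55 ± 0.36 and 8.44 ± 1.41 (SD, n = 2 each), which gives a change of 2.11 on the log2 scale with an SE of 0.82 and a limma adjusted p of 0.975.

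The size of the Spry1 difference turned on the siControl arrays. Without siControl of experiment 2 the log2 fold change was 1.12, and without siControl of experiment 1 it was 3.11. The experiments differed by -1.99 in siControl (experiment 2 minus experiment 1), a gap that 4.21% of genes matched or exceeded, and by -0.50 in siFxr1, where 44.8% did. The median gap over all genes was 0.50 in siControl and 0.44 in siFxr1, without regard to sign. At least as large a rise in both experiments as that of Spry1 was seen in 195 genes (1.02%). Under the 6 background and scaling settings, its difference stayed above 2-fold in both experiments, and with the block and the filter its limma adjusted p was 0.0714.

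Spry2, which binds the ubiquitin ligase Cbl and the adaptor Grb2, differed by less than 2-fold in both experiments. Its probe stood well above background throughout and read 8.62 and 6.73 in siControl and 8.32 and 6.71 in siFxr1 (normalized log2 signal). The arrays of the conditions overlapped, and those of experiment 2 were the lower ones in both. The difference was -0.30 in experiment 1 and -0.02 in experiment 2, and the fitted change was -0.16 with an SE of 0.99 and a limma adjusted p of 0.996. The experiments differed by -1.89 in siControl and -1.61 in siFxr1. Gaps of this size were seen in 4.80% and 6.07% of genes. With the experiment as a block the SE was 0.21 and the limma adjusted p 0.849. A p that misses the threshold does not show that the conditions were alike.

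Spry3, a Sprouty less studied than the others, was not well above background on any array. Its probe read 3.14 and 2.82 in siControl and 2.64 and 3.27 in siFxr1 (normalized log2 signal), and the conditions overlapped. Neither condition being well above background, no direction is read from its difference.

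**Figure D3:**
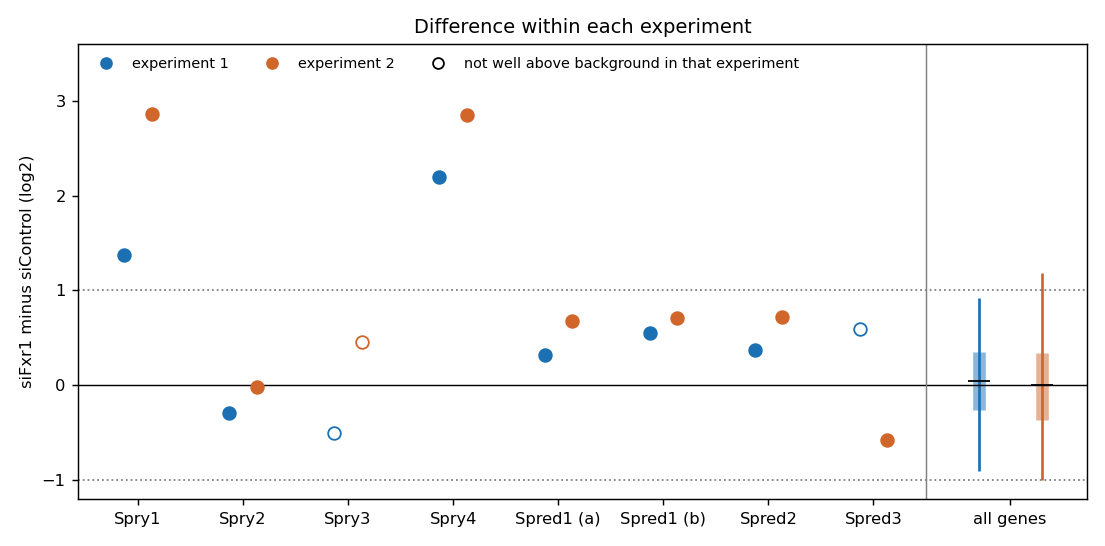
siFxr1 minus siControl within each experiment (log2, vertical axis) for each member probe, with dotted lines at 2-fold. Where both arrays of an experiment were not well above background, its point is open, and at the right the median, the quartiles (bar) and the 5th to 95th percentiles (line) of all 19201 genes are drawn. Spry1 and Spry4 exceed 2-fold in both experiments, and Spred1 and Spred2 lie between 0.32 and 0.71.

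The Spreds differed by less than 2-fold in both experiments. Spred1, whose loss in people causes a disorder close to neurofibromatosis, was measured by 2 probes, and in both the siFxr1 arrays were higher. Probe a read 11.83 and 11.60 in siControl and 12.15 and 12.28 in siFxr1 (normalized log2 signal), a difference of 0.32 and 0.68 in experiments 1 and 2. Probe b read 10.45 and 10.87 in siControl and 11.00 and 11.57 in siFxr1, a difference of 0.55 and 0.70. Both siFxr1 arrays lay above both siControl arrays on each probe, although for probe b by a small margin. On the log2 scale, limma fitted a change of 0.50 (SE 0.18, adjusted p = 0.975) for probe a and of 0.63 (SE 0.32, adjusted p = 0.975) for probe b, and the mean of both was 0.56. As large a rise in both experiments as on probe a was seen in 12.7% of genes.

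Spred2, the close relative of Spred1 also inhibits the activation of Erk. Its probe read 9.50 and 9.85 in siControl and 9.87 and 10.56 in siFxr1 (normalized log2 signal), and the lower siFxr1 array exceeded the higher siControl array by little. The difference was 0.37 in experiment 1 and 0.71 in experiment 2. The means were 10.22 ± 0.48 and 9.67 ± 0.24 (SD, n = 2 each), and limma fitted a change of 0.54 (log2, SE 0.33, adjusted p = 0.975). A rise at least this large in both experiments was seen in 2053 of 19201 genes.

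Spred3, which lacks a working Kit-binding domain, was well above background in experiment 2 only, on 1 array of each condition. Its probe read 3.59 and 5.59 in siControl and 4.19 and 5.01 in siFxr1 (normalized log2 signal). The conditions overlapped, and both arrays of experiment 2 were higher than those of experiment 1. The difference was -0.58 in experiment 2, where both arrays were well above background. Over the background and scaling settings it ran from -0.58 to -0.13 there. The change fitted by limma over both experiments was 0.01 (log2, SE 0.86, adjusted p = 1).

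Across the experiments the members did not vary alike. Spry1 and Spry2 were lower in experiment 2 in both conditions, Spred2, Spred3 and probe b of Spred1 were higher there in both, and probe a of Spred1 was lower in siControl and higher in siFxr1. Of all genes, 41.5% were lower and 33.1% higher in experiment 2 in both conditions. For Spred1 (probe a) and Spred2, the gap between the siControl arrays was matched or exceeded in 75.5% and 63.7% of genes, and that between the siFxr1 arrays in 83.6% and 31.4%. Spry4 has no direction in siControl, where it was not well above background.

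The other genes of the pathway were read from lists, with a rise or fall counted at 2-fold in both experiments. Of 12 adaptor and Ras genes, 11 were above the filter, and 0 rose and 0 fell, against 2.11% and 1.51% of the 19201 genes. Nras, one of the Ras genes, differed by 0.40 and 1.16 in experiments 1 and 2 (log2 difference) with both siFxr1 arrays above, and Rasa1, a Ras inactivator, by 0.52 and 1.02 with overlapping arrays. Ptpn11, the phosphatase Shp2, differed by 0.28 and 0.66, and Frs2, an adaptor of FGF receptors, by -0.33 and -0.21. The median change over the list was 0.03 on the log2 scale, equal to the 0.03 of all genes.

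The kinases Raf, Mek and Erk and their scaffolds gave 9 measured genes, of which 0 rose and 0 fell, against 2.11% and 1.51% of the 19201 genes. The median log2 fold change was -0.18. Araf, a Raf kinase, differed by -0.46 and -0.39 (log2 difference, experiments 1 and 2) with both siFxr1 arrays below. Mapk3, which encodes Erk1, differed by -0.31 and -1.05 and Braf by 0.84 and 0.19, both with overlapping arrays. In none of these kinases did the difference reach 2-fold in both experiments.

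Of 13 genes whose products bind or modify Sproutys or Spreds, 0 rose and 1 fell, against 2.11% and 1.51% of the 19201 genes. The gene that fell was Siah2, a ubiquitin ligase that targets Sproutys for degradation, with -1.11 and -1.55 (log2 difference, experiments 1 and 2). Its levels were 11.11 and 9.78 in siControl and 10.00 and 8.23 in siFxr1, so that the conditions overlapped although it was lower in each experiment. Cav1, the caveolin that binds Sproutys, differed by -0.30 and -0.85 with both siFxr1 arrays below. Dyrk1a, a kinase that acts on Spry2, differed by 0.16 and 0.53 with both above. Ptpn11, Grb2 and Nf1 are among the genes that this list shares with those before it.

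The other feedback inhibitors of the pathway held 3 risers among 9 measured genes, against 2.11% of the 19201 genes, and 0 genes that fell, against 1.51%. Dusp6, a phosphatase that inactivates Erk in the cytoplasm, read 13.10 and 13.06 in siControl and 14.91 and 15.50 in siFxr1 (normalized log2 signal). Its differences were 1.81 and 2.45, and limma fitted a change of 2.13 (log2, SE 0.27, adjusted p = 0.950). Dusp5, which inactivates Erk in the nucleus, differed by 2.26 and 1.07, but was well above background on only 1 siControl array. It thus passed the filter only through its siFxr1 arrays, so its place among the 3 risers was partly built in. Errfi1, an inhibitor of the EGF receptor, differed by 1.82 and 1.05, with both siFxr1 arrays above. Dusp4 differed by 0.22 and 0.26 with overlapping arrays, and the other 5 (Lrig1, Lrig2, Lrig3, Il17rd and Dusp7) also overlapped. The median log2 fold change of the 9 was 0.24.

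Of 10 transcripts known to be induced by Erk, 0 rose at least 2-fold in both experiments, against 2.11% of the 19201 genes. By some amount, 7 were higher in both and 0 were lower in both. Over all genes, 6542 of 19201 were higher in both and 5734 lower in both. For 5 of the 10, Phlda1, Fos, Etv1, Etv4 and Etv5, both siFxr1 arrays lay above both siControl arrays, against 16.5% of the 19201 genes. Phlda1, an early response gene, differed by 1.00 and 0.73 (log2 difference, experiments 1 and 2), and Fos, the AP-1 subunit, by 0.53 and 0.54. The ETS factors Etv4 and Etv1 differed by 0.51 and 1.41 and by 0.50 and 1.54. Egr1 (0.47 and -0.09), Ccnd1 (-0.44 and 1.09) and Ier3 (-0.13 and 0.74) differed in sign between the experiments, with overlapping arrays. The list's median was 0.61, with 0.48 in experiment 1 and 0.73 in experiment 2, against 0.03 for all genes.

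**Figure D4:**
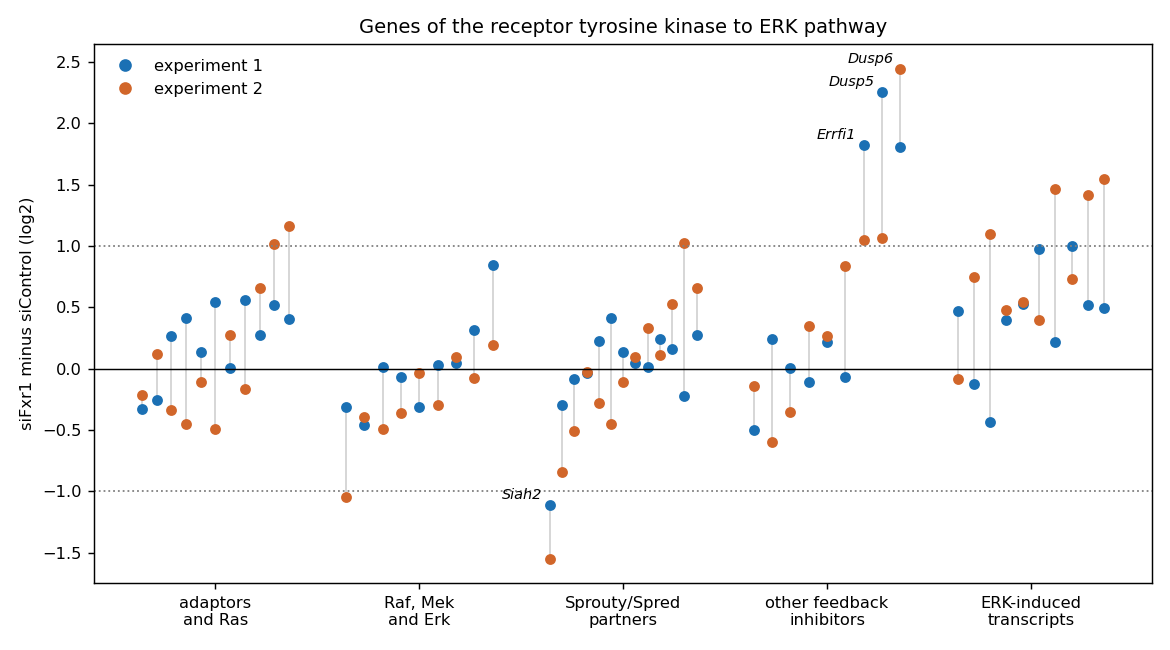
siFxr1 minus siControl within each experiment (log2, vertical axis) for the genes of 5 lists of the pathway, each gene being a pair of points joined by a line, ordered by log2 fold change within a list. Dotted lines mark 2-fold, and genes past it in both experiments are named. These are Dusp6, Dusp5 and Errfi1 among the other feedback inhibitors and Siah2 among the partners of Sproutys and Spreds.

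Markers of other cell types were read beside these results. Of 4 epithelial markers, none was well above background on all 4 arrays and Epcam and Cdh1 were not on any, while the list's summed signal was 122.5 and 62.47 in siControl and 286.3 and 126 in siFxr1. The keratin Krt18 differed by 1.62 and 2.38 (log2 difference, experiments 1 and 2) and was not well above background in siControl of experiment 2. Krt8 differed by 0.69 and 0.86 and was not well above background in siControl of experiment 1. Both keratins passed the filter only through their siFxr1 arrays, so a higher level there was built into their passing. For the 4 leukocyte markers the sums were 2669 and 1561 against 3785 and 2105, with Ptprc not well above background on any array and Cd3e and Csf1r on all. Csf1r, a receptor of macrophages, differed by 0.91 and 0.78 with both siFxr1 arrays above, and Cd3e by 0.08 and -0.08. For the 4 endothelial markers, of which Cdh5 and Kdr were well above background on all arrays, they were 3164 and 3456 against 4419 and 3747. Among the endothelial markers, Kdr was the brightest and differed by 0.50 and 0.10 (log2 difference, experiments 1 and 2), while Cdh5 differed by -0.37 and 0.70. These 3 sums were higher in siFxr1 in both experiments, and their part in the results was not tested. None of the 3 adipocyte markers was well above background on any array. Their sums were also higher in siFxr1, with 31.29 and 26.32 in siControl and 41.28 and 28.46 in siFxr1. The myoblast sums were 174000 and 109100 in siControl and 169300 and 130300 in siFxr1. Myod1 differed by -0.17 and -0.73 (log2 difference, experiments 1 and 2) with both siFxr1 arrays below, and Des by 0.48 and 0.05 with both above. Cdh15 differed by -0.17 and -0.01 and Chrna1 by -0.07 and 0.54, with overlapping arrays.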

How the data were processed

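RNA of C2C12 cells in 2 conditions was measured on 4 arrays, 2 per condition, grouped by their labels. Spot intensity as deposited by the authors is the output of Agilent Feature Extraction 10.7.3.1 (per the submitters' processing notes), with background correction inside each array but no scaling across arrays. A series table of normalized intensity values was deposited too, whose background correction is not stated and which was used as an alternative.

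Processed signals were put on the log2 scale and quantile normalization was run over 59305 non-control spots in R 4.3.3 with limma 3.58.1. Outlier spots were set to missing and the spots of a probe averaged. lmFit and eBayes (expected share of changed probes 0.01) were fitted with the condition as the only term. Calls needed a B value above 0 or a p under 0.05 after Benjamini-Hochberg adjustment over all 55681 probes. Well above background means that the software had so marked 0.5 or more of a probe's spots, and a gene was read from its brightest probe above the filter. SE and adjusted p are limma's. The smallest two-sided p of an exact permutation of 2 against 2 arrays is 0.333, so none is given. The number of arrays limits the precision.

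Replicate numbers are experiments, and by the labels both samples of an experiment shared a slide, so they pair the samples. Samples of an experiment deviated together from their condition means (correlation 0.714). The median residual SD was 0.34 without and 0.19 with the experiment as a block. In 0 pairs of arrays were all values identical.

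The genes named are all members, Fxr1, up to 4 genes of each pathway list, by the smaller of the 2 within-experiment differences among genes that moved one way in both, and the 5 genes nearest to Spry4, the member with the largest fitted change on this signal. Beyond this rule, Etv5, Egr1, Ccnd1, Ier3, the 5 remaining feedback inhibitors and markers were named after their values were seen. Some listed genes are not reported here by name. The members, lists and tests were chosen with earlier results of these data known. For 26413 probes the gene name was found through a RefSeq accession, and for the rest the array's own name was kept. Promoters were counted over 250 bases upstream of the start. The fits were tested on simulated data with no experiment effect and the smaller residual SD of the block fit. That checks the code and not how many changes the fits would find on these arrays. Alternatives covered background correction, scaling, the authors' table, the filter, the block, ratios as observations, the probe of a gene and each array left out.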

Additional observations from a re-analysis of the deposited data

How the results depend on the processing

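The directions of Spry1, Spry4, Spred1 and Spred2 held under every alternative run, and of the members Spry4 alone passed a threshold in any, with the block and the filter on dim probes, which it had passed only through its siFxr1 arrays. As a replicate block, the experiment alone left 0 probes called (lowest limma adjusted p = 0.535) and changed no call. With the block and the filter, 354 probes had a B value above 0 and 280 an adjusted p under 0.05. With the 4 ratios of a siFxr1 to a siControl array fitted as observations, which reuse each array, they were 1107 and 1064, with no member at a B value above 0 (Spry4 -0.69). Leaving out each array in turn gave 0 probes.

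Genes at least 2-fold higher in both experiments numbered 405, but 151 after normexp, 133 with no background correction, 238 with the median minus background and 133 in the authors' table. Those lower numbered 289, but 125, 115, 175 and 114. Members higher numbered 1 (Spry1) in place of 2 after normexp, with no background correction and in the authors' table. With no filter on dim probes, chosen after seeing the data, the counts were 601, 407 and 2.

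The log2 fold change changed sign for Spry3, from -0.02 to 0.29 (75th percentile), 0.038 (normexp), 0.080 (no background correction), 0.10 (median minus background) and 0.084 (authors' table), and for Spred3, from 0.01 to -0.11, -0.082, -0.17 and -0.082 under the last 4 of these. Leaving out 1 array gave -1.10 to 0.79 for Spry2, -0.34 to 0.29 for Spry3, -0.99 to 1.01 for Spred3, 1.12 to 3.11 for Spry1, 1.89 to 3.17 for Spry4, 0.39 to 0.61 and 0.34 to 0.92 for probes a and b of Spred1, and 0.20 to 0.89 for Spred2. The causes were not tested. Signals near background limit Spry3, Spry4 and Spred3.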
